A study of Mus musculus with 4 samples.

Results

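The circular RNAs (circRNAs) of Tasp1 were examined in cultured primary chondrocytes from mouse joint cartilage, either treated with the cytokine interleukin-1β (IL-1β) or left as controls. IL-1β drives cartilage breakdown and is widely applied to such cells as a model of osteoarthritis. Tasp1 circRNAs were taken as the circRNAs whose junction ends both lay inside the RefSeq span of the gene, with a tolerance of 1 bp, on chromosome 2 from 139833479 to 140066847 (mm10 coordinates as deposited; the annotation is RefSeq GRCm38.p6). This gave 56 of the 40909 circRNAs listed, and all 56 were on the minus strand. Tasp1 was chosen because it led by junction reads and held many circRNAs, so its reads and its number of circles are given as a description and carry no test. Its most read circle had also already been seen to be lower with IL-1β in these libraries.

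The IL-1β group held 2 libraries, from cells that received the recombinant human cytokine for 24 h at 10 ng/ml, and the control group held 2 libraries of the same labelled cell type. Since the protocol text describing the cytokine is repeated for the controls, the source label set the groups. Genotype, strain, age and sex of the mice, and the origin of the 2 libraries of each group (separate cultures, separate animals or neither), are not stated in the labels. The p-values therefore speak only of the spread among these 4 libraries, which may be technical. All cells were of early passage and had been thawed before plating. RNA was depleted of ribosomal RNA and digested with RNase R, an enzyme that degrades linear RNA, in both groups.

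Tasp1 encodes taspase 1, a protease that cleaves itself into a pair of subunits and then cuts a small set of nuclear proteins after aspartate. Its known substrates include the histone methyltransferases KMT2A and KMT2B and the general transcription factor TFIIA, and its activity is known for maintaining Hox gene expression and cell cycle progression. A circRNA forms when the spliceosome joins the end of a downstream exon back to the start of an upstream exon. Each circle is counted by the reads that cross this back-splice junction. In the text that follows, the upstream end of a circle is the junction end nearer the start of the gene, where the upstream exon begins, and the downstream end is the other one. Tasp1 lies on the minus strand, so the upstream end has the higher coordinate. The tables used hold no exon positions, so exon numbers are not stated.

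Junction reads numbered 1198010 and 1203855 in the controls and 895774 and 980542 in the IL-1β libraries. Markers of the labelled cell type were checked among the circRNA hosts, although genes with no circles can still be expressed. Of 11 chondrocyte markers 3 had junction reads, Sox5 with 936, Sox6 with 375 and Hapln1 with 7, and Sox9, Col2a1, Acan, Col9a1, Col11a1, Comp, Matn1 and Prg4 were at 0. Of 7 fibroblast markers 5 had reads (Thy1 and Fap were at 0), and their summed level was 139 and 208 CPM in control and 89.3 and 72.4 CPM with IL-1β (CPM, reads per library total scaled to a common size; for these lists no TMM factor was applied). Of 5 endothelial markers 2 had reads (Cdh5, Kdr and Tek were at 0), with summed levels of 96.8 to 155 CPM. Of 6 macrophage markers Mrc1 alone had reads, at 0 to 12.5 CPM (Ptprc, Csf1r, Adgre1, Cd68 and Itgam were at 0). The chondrocyte list summed to 401 and 230.1 CPM in control and 271 and 323 CPM with IL-1β, and the groups overlapped. The fibroblast list was lower with IL-1β in sum, as Tasp1 was. Its most read member, Col1a2, had 48 and 131 reads in control and 37 and 5 with IL-1β, and overlapped after scaling. In the chondrocyte list Sox6 was also lower, with 149 and 101 reads in control and 59 and 66 with IL-1β. Sox5 overlapped, with 332 and 169 reads in control and 184 and 251 with IL-1β. The part of either list in the Tasp1 values was not tested.

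All 56 circles lie downstream of the annotated start of 1 gene. The promoter listed for Tasp1 is shown because all members lie behind it. Its own start lies slightly inside the gene span and is not the gene start at 140066847, from which other distances are counted. The promoter is given from RefSeq (GRCm38.p6) for chr2:140066756-140067055, minus strand, from 250 bases before its own start to 50 after it. It is written 5′ to 3′, with matches to the E-box CACGTG and to CCAAT in capitals.
Tasp1 promoter: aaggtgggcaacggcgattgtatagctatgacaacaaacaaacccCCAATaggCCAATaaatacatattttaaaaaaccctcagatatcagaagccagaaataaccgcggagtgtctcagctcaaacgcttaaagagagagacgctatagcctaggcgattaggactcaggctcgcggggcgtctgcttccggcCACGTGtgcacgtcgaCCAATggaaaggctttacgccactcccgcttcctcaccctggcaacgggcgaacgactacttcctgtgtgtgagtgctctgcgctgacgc
Both strands were searched. CACGTG occurred 1 time, and 7.15% of 32851 RefSeq promoters of this length hold it. CCAAT occurred 3 times, without overlap, and 37.4% of promoters hold it. The TATA motif TATAAA had no match, where 13.6% of promoters hold it. The AP-1 motif TGANTCA had none, where 7.81% hold it, and the kappaB motif had none, where 8.46% hold it. No signal at the promoter was measured in these libraries.

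Most Tasp1 reads came from circles that opened at the same place. The upstream end at 140057499, 9348 bp downstream of the annotated start, was joined to 18 different downstream ends and carried 33761 of the 39174 Tasp1 junction reads (86.2%). These 18 circles formed a ladder that started at this end and reached between 15406 and 223211 bp into the gene. The share of Tasp1 reads at this end was 84.4% and 88.8% in the controls and 86.2% and 84.6% with IL-1β, and the groups overlapped. The 95% exact binomial intervals of these 4 shares, which cover counting error only, ran from 83.8% to 89.3%.

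The other 38 circles used 13 further upstream ends. The end at 139985208 carried 3181 reads in 5 circles, the end at 139951579 carried 1176 reads in 8 circles and the end at 139977713 carried 648 reads in 3 circles. The remaining upstream ends carried between 7 and 133 reads each. In all, 14 upstream and 21 downstream ends were joined into 56 of 294 possible pairs.

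**Figure D1:**
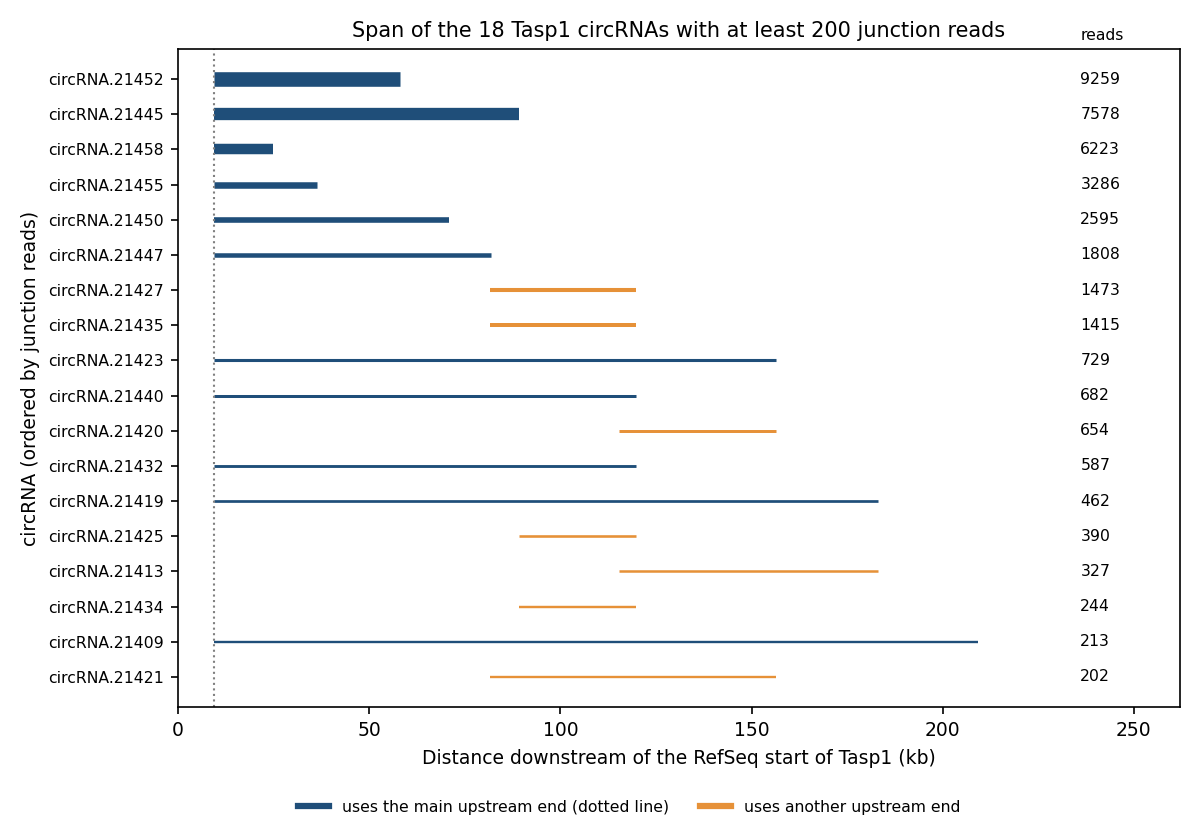
Map of the 18 Tasp1 circRNAs with at least 200 junction reads over the 4 libraries. The x axis is the distance in kb from the annotated start of Tasp1, each bar joins the upstream and downstream ends of a circle, bar width follows total junction reads, which are printed at the right, and 11 of the 18 bars start at the dotted line, the main upstream end.

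Reads were spread along the ladder and not held by 1 circle. The first was circRNA.21452 (140008699 to 140057499), with 9259 reads or 23.6% of Tasp1, then circRNA.21445 (139977607 to 140057499) with 7578 reads or 19.3%, and circRNA.21458 (140042094 to 140057499) with 6223 reads or 15.9%. All of these open at the main upstream end and span 48801, 79893 and 15406 bp. Next came circRNA.21455 (140030601), circRNA.21450 (139996073) and circRNA.21447 (139985129), named here by their downstream end and opening at the same place, with 3286, 2595 and 1808 reads. The most read circles with another upstream end were circRNA.21427 and circRNA.21435, which open at 139985208 and had 1473 and 1415 reads. The 12 circles with the most reads held 92.6% of Tasp1 reads. Among the 11 circles at the main upstream end with at least 200 reads, longer circles had fewer reads (Spearman -0.84 across circles, which share an end and the libraries and are not independent).

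Several hosts near Tasp1 in total reads gave a larger share of their reads to 1 circle. Tasp1 ranked 7 by reads and 13 by number of circles among 6929 hosts. Its leading circle held 23.6% of its reads, against 39.4% in Glis3, 45.0% in Asph, 65.9% in Tmeff1, 68.3% in Utrn and 86.4% in Setbp1. Its most used upstream end was shared by 18 circles, against 19 in Setbp1 and between 5 and 9 in the other 4. Over the 572 hosts with at least 1000 reads and at least 10 circles, the median was 4 circles at the most used upstream end, and 4 hosts, Tasp1 among them, had 18 or more. This number can grow with reads, and the hosts were not matched to Tasp1 in reads. Single libraries held 14 and 16 of the Tasp1 circles at this end in control and 15 and 13 with IL-1β. The share of reads at the most used upstream end was 86.2% in Tasp1, 99.6% in Setbp1, 93.8% in Tmeff1, 80.3% in Utrn, 51.2% in Asph and 40.7% in Glis3. Its median over the 572 hosts was 59.2%, and 103 hosts, Tasp1 among them, were at or above the Tasp1 share. The most used downstream end of Tasp1 carried 23.7% of its reads, against a median of 55.6% over the same hosts. These are descriptions of a host chosen for many circles, and no difference between hosts was tested.

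Several short stretches were bounded by both kinds of end. Only ends up to 300 bp apart were paired, so the short length was set by this limit. In 8 places an upstream end and a downstream end lay 69 to 263 bp apart, counted with both ends. In 6 of them the reads lay mostly at the downstream end. The stretch from 140008699 to 140008819 (121 bp) closed circles with 9270 reads and opened circles with 133. The stretch from 139977607 to 139977713 (107 bp) closed circles with 7685 reads and opened circles with 648. The order was the other way for 2 stretches. From 139985129 to 139985208 (80 bp) the stretch closed circles with 1808 reads and opened circles with 3181, and from 139951460 to 139951579 (120 bp) it closed circles with 87 reads and opened circles with 1176.

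A pair of downstream ends 13 nt apart, at 139947157 and 139947170, was used with nearly equal reads (2581 in 9 circles and 2435 in 8 circles), and 7 upstream ends were joined to both. The pair was singled out after its values were seen. The share of the first end was 56.3% and 53.7% in the controls and 46.9% and 44.1% with IL-1β, so the groups did not overlap. In circles opening at 139985208, circRNA.21427 and circRNA.21435, the share was 58.4% and 51.5% in control and 48.3% and 40.8% with IL-1β. In circles opening at the main upstream end, circRNA.21432 and circRNA.21440, it was 40.2% and 53.2% in control and 38.7% and 47.5% with IL-1β, and the groups overlapped. With 2 libraries against 2, an exact two-sided permutation test cannot give a p below 0.333.

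The question of the design was whether IL-1β changed the circles. Summed over its circles, Tasp1 had 11830 and 12691 reads in control, 0.987% and 1.05% of the library. It had 6954 and 7699 with IL-1β, 0.776% and 0.785% of the library. Both IL-1β libraries were below both controls. The level, here and in all that follows in CPM with TMM factors, was 10638 ± 715 CPM in control and 7874 ± 142 CPM with IL-1β (mean ± SD, n = 2 each), a 1.35-fold difference. The log2 change was -0.43 ± 0.13 (SE), and it missed the threshold of 0.05 in edgeR's quasi-likelihood fit (adjusted p = 0.882 over 4878 hosts; unadjusted p = 0.0115). In the same test 0% of hosts passed an adjusted 0.05, 4.55% had an unadjusted p under 0.05, and 18.9% had both IL-1β libraries below both controls. DESeq2, run as an alternative, gave -0.43 with an adjusted p of 0.0268 and called 1.13% of hosts. In bulk RNA, fewer cells that make a circle and fewer copies per cell cannot be told apart, and linear Tasp1 RNA was not analysed here.

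Of the 56 circles 33 had at least 20 reads over the libraries and were tested. The other 23 had 2 to 19 reads each, 216 reads together, and were not tested. In edgeR 0 of the 33 had an adjusted p under 0.05, where 0.0196% of the 15333 tested circRNAs did. An unadjusted p under 0.05 was found for 5 of the 33, all lower with IL-1β, where 3.44% of all tested circRNAs had such a p and 1.62% did so with a lower value (4.13% of those with at least 200 reads). DESeq2 called 1 of the 33, circRNA.21452, and 0.691% of all tested circRNAs. It gave no adjusted p for some of the less read circles, and those without one count as not called in both values. Negative log2 changes were seen in 23 of the 33, against 51.7% of all tested circRNAs, and the median was -0.44 against -0.05. With the library depths implied by SRPBM, the authors' own depth-scaled value, 27 of the 33 were negative and the median of all tested circRNAs moved from -0.05 to -0.28, so log2 changes are relative to the bulk of circRNAs. In 12 of the 33 both IL-1β libraries were below both controls and in 2 both were above, where 17.2% and 16.4% of all tested circRNAs did so. Circles of 1 gene share their transcript and are not independent, and a circle read in 1 group only could pass the read minimum through that group alone.

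Among the 12 most abundant circles the largest difference on the log2 scale was that of circRNA.21452. It had 3189 and 3185 reads in control and 1420 and 1465 reads in the IL-1β libraries. Both IL-1β libraries stood well below both controls, at 1531 ± 41.9 against 2668 ± 86.7 CPM (n = 2 each), a 1.74-fold difference. The log2 change was -0.80 ± 0.19 (SE), with an adjusted p of 0.886 in edgeR (unadjusted p = 0.00475) and of 5.59e-05 in DESeq2. The circle was already known to be lower in these libraries, so neither p is independent support.

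The circles next to circRNA.21452 in total reads, also on the ladder, differed less between the groups. No difference between circles was tested, and circRNA.21452 was already known to be lower, so this is a description. The longer circRNA.21445 had 1981 and 2554 reads in control and 1483 and 1560 reads in the IL-1β libraries. After scaling, its IL-1β libraries lay just below the controls, at 1615 ± 22.0 and 1893 ± 279 CPM, a log2 change of -0.23 ± 0.21. The SRPBM depth gave -0.44. The short circRNA.21458 had 1547 and 1864 reads in control and 1295 and 1517 after treatment. Its groups overlapped, at 1489 ± 92.9 and 1425 ± 143 CPM, a log2 change of 0.06 ± 0.21. It became -0.16 with the SRPBM depth, where its IL-1β libraries lay just below the controls (109 and 113 against 131 and 116 SRPBM).

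Lower values were seen again for the circles next in total reads, which close between the downstream ends of circRNA.21458 and circRNA.21445. The circle circRNA.21455 had 899 and 1314 reads in control and 508 and 565 after treatment. These were 569 ± 14.6 CPM with IL-1β against 923 ± 216 CPM, a log2 change of -0.70 ± 0.25. For circRNA.21450 the reads were 460 and 448 against 830 and 857, or 482 ± 32.8 and 706 ± 6.34 CPM, a log2 change of -0.55 ± 0.22. For circRNA.21447 they were 324 and 323 against 661 and 500, or 344 ± 17.7 and 488 ± 111 CPM, a log2 change of -0.50 ± 0.27. In these 3 circles both IL-1β libraries were below both controls, as in 20.1% of all circRNAs with at least 200 reads. All 3 had an adjusted p of 0.886 in edgeR.

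**Figure D2:**
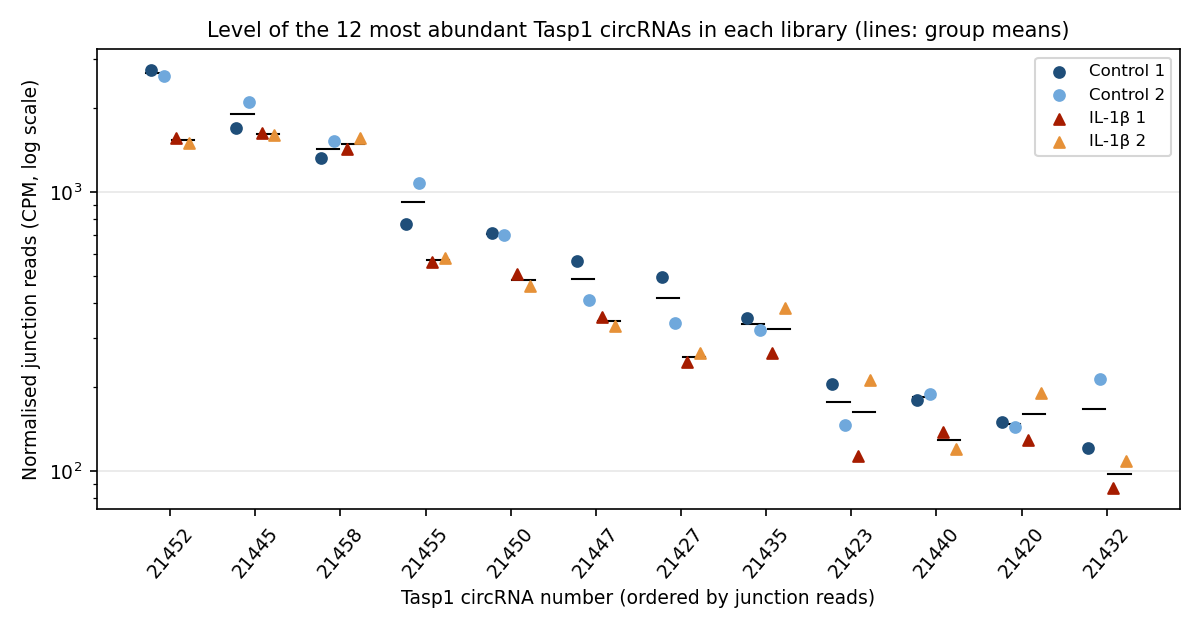
Level of the 12 most abundant Tasp1 circRNAs in each library. The y axis is CPM on a log scale, circles are control libraries, triangles are IL-1β libraries and short lines are group means (n = 2). The 2 IL-1β points of circRNA.21452 (1531 on average) lie far below its 2 control points (2668), while those of circRNA.21458 (1489 and 1425) overlap.

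Among circles outside the ladder, circRNA.21427 had 577 and 415 reads in control and 224 and 257 after treatment, 255 ± 12.2 CPM with IL-1β against 417 ± 109 CPM, with no overlap and a log2 change of -0.71 ± 0.29. Its partner circRNA.21435, whose downstream end is 13 nt away, had 240 and 373 reads against 411 and 391, or 323 ± 83.8 and 336 ± 22.5 CPM, and the groups overlapped. The circles circRNA.21432 and circRNA.21440 close at the same 2 ends but open at the main upstream end. Their log2 changes were -0.77 ± 0.40 and -0.52 ± 0.30. In both circles the IL-1β libraries were below the controls, as in 20.1% of all circRNAs with at least 200 reads. The circles circRNA.21423 and circRNA.21420, which both close at 139910533, overlapped between groups, with log2 changes of -0.11 ± 0.40 and 0.12 ± 0.33. With the SRPBM depth these were -0.38 and -0.12, and the groups again overlapped.

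The lowest level among the circles with an unadjusted p under 0.05 belonged to circRNA.21454 (140027227 to 140057499). It had 68 and 52 reads in control and 11 and 14 after treatment. The groups were well apart, at 13.2 ± 1.60 CPM with IL-1β against 50.4 ± 11.1 CPM, a 3.81-fold difference, but on few reads, and the log2 change was -1.92 ± 0.73, adjusted p = 0.886 in edgeR. In the other direction, the long circle circRNA.21419 (139883772 to 140057499) had 106 and 120 reads in control and 119 and 117 after treatment. After scaling, both of its IL-1β libraries were above both controls, at 125 ± 7.70 and 94.5 ± 5.30 CPM, a log2 change of 0.41 ± 0.34 (adjusted p = 0.966 in edgeR). With the SRPBM depth the log2 change was 0.19 and the groups overlapped, at 9.98 and 8.72 SRPBM with IL-1β and 8.98 and 7.45 in control.

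Of the 18 circles with at least 200 reads, 14 were below 0 on the log2 scale and the median was -0.51, against 50.8% of the 3100 circRNAs at that depth and a median of -0.01. In 9 of the 18 both IL-1β libraries were below both controls, against 20.1% of those 3100. With the SRPBM depth 17 of the 18 were negative. That depth also moved the median of all 15333 tested circRNAs to -0.28, and their share below 0 there was not computed. Among the 11 of the 18 Tasp1 circles at the main upstream end, the log2 change had a Spearman correlation of 0.33 with the span of the circle. This is a description across circles that share an end.

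**Figure D3:**
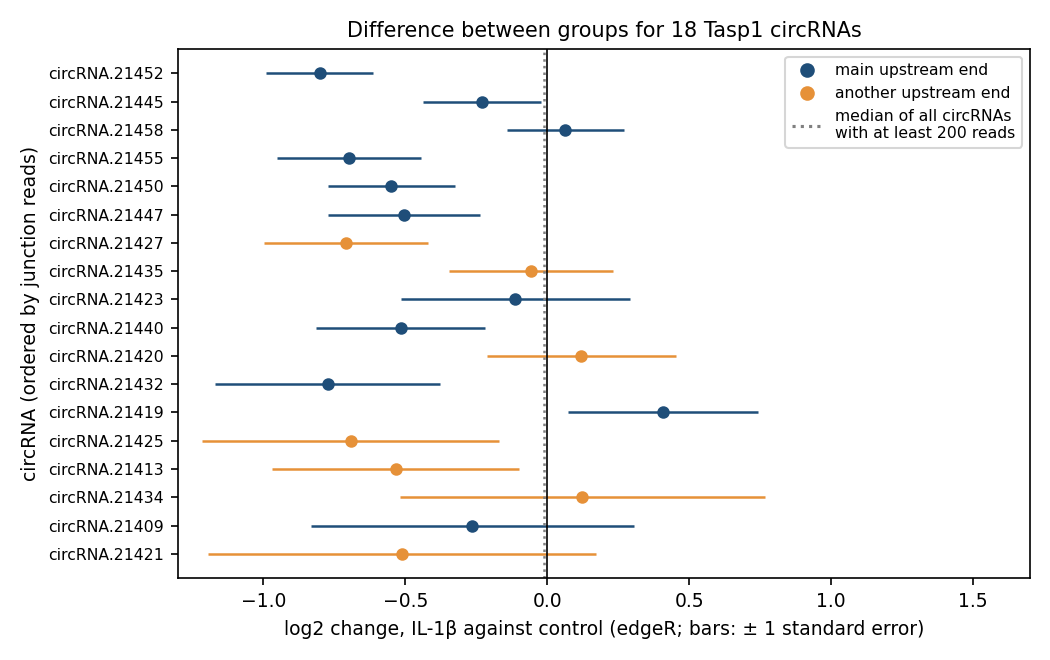
Log2 change with IL-1β for the 18 Tasp1 circRNAs with at least 200 reads. The x axis is the log2 change from edgeR with bars of ± 1 standard error, blue points open at the main upstream end and orange points elsewhere, and the dotted line is the median of the 3100 circRNAs at that depth (-0.01). In the plot 14 points lie below 0 and 4 above, and circRNA.21452 lies at -0.80.

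Without circRNA.21452 the remaining circles together were lower too, by less. They summed to 6322 ± 195 CPM with IL-1β and 7872 ± 665 in control, and each IL-1β library was below each control. The log2 change was -0.32 ± 0.14 (SE), and its adjusted p was 0.881 in edgeR (unadjusted p = 0.0555) and of 0.227 in DESeq2. Circles at the main upstream end summed to 6633 ± 66.0 and 8885 ± 475 CPM without overlap. Circles at the other upstream ends summed to 1134 ± 109 and 1372 ± 290 CPM, and there the groups overlapped.

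The leading circle by reads was not the same in control and IL-1β libraries. In both controls circRNA.21452 was the most read Tasp1 circle, circRNA.21445 the next and circRNA.21458 after it. In both IL-1β libraries circRNA.21445 was first, and circRNA.21452 ranked 2 and 3. These IL-1β ranks rest on small gaps, 1483 reads against 1420 in IL-1β 1 and 1560, 1517 and 1465 reads for the first 3 in IL-1β 2. The share of circRNA.21452 in Tasp1 reads was 20.4% and 19.0% with IL-1β (95% exact binomial intervals 19.5% to 21.4% and 18.2% to 19.9%). The 21.3% share of circRNA.21445 in IL-1β 1 lies inside the first of these intervals, so the order there is within counting error. In IL-1β 2 the 19.7% share of circRNA.21458 lies inside the second interval, so ranks 2 and 3 are within counting error too. The 20.3% share of circRNA.21445 in IL-1β 2 lies just above that interval. In control the share of circRNA.21452 was 27.0% and 25.1% (26.2% to 27.8% and 24.3% to 25.9%). The difference of -6.30 percentage points had an exact permutation p of 0.333 (two-sided), the smallest that 2 libraries against 2 can give. The share of circRNA.21458 was 18.6% and 19.7% with IL-1β and 13.1% and 14.7% in control. The ratio of circRNA.21452 to circRNA.21458 within a library was 1.10 and 0.966 with IL-1β and 2.06 and 1.71 in control. The first 3 circles together held 60.4% and 59.0% with IL-1β and 56.8% and 59.9% in control, and the groups overlapped.

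**Figure D4:**
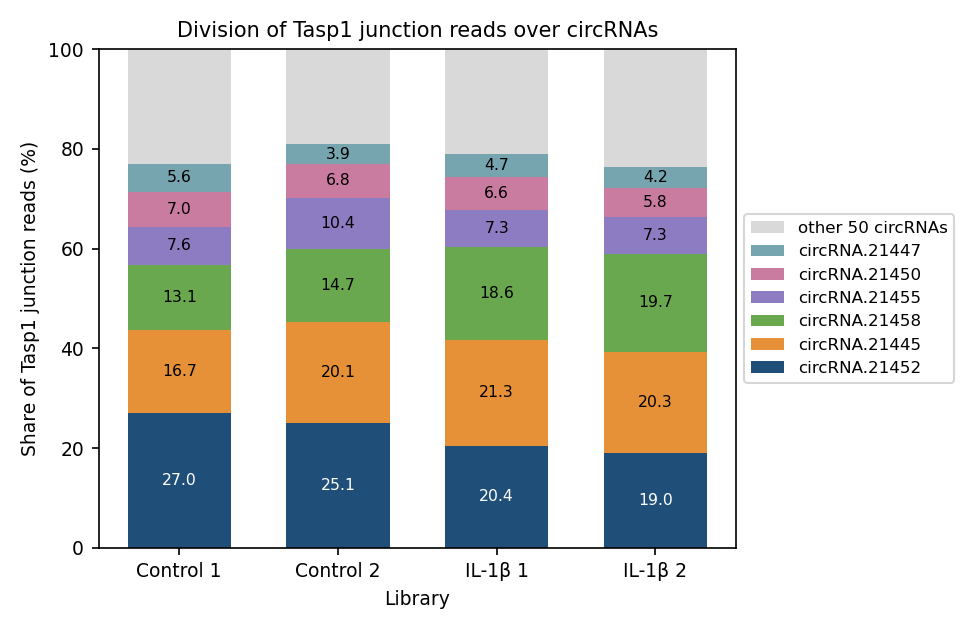
Share of Tasp1 junction reads held by each circRNA in the 4 libraries. Each bar is 1 library and sums to 100%, coloured blocks are the 6 most read circles with their percent printed, and grey is the other 50. The block of circRNA.21452 is 27.0% and 25.1% in control and 20.4% and 19.0% with IL-1β, and the block of circRNA.21458 is larger with IL-1β.

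The number of different Tasp1 circles did not separate the groups. Control libraries held 40 and 34 and IL-1β libraries 38 and 33. There were 24 circles read in all 4 libraries (42.9% of Tasp1 circles, against 16.8% of all circRNAs), and they carried 98.6% of Tasp1 reads. Detection depends on reads and Tasp1 was chosen for its reads, so the higher share is not a result about Tasp1. No share matched for reads was computed. A further 19 were read in 1 library, with 2 to 22 reads each. No circle had reads in the pair of IL-1β libraries alone. The pair of controls alone held 1, circRNA.21417, with 6 and 13 reads. Of the 6110 circRNAs read in exactly 2 libraries 16.4% fell to the IL-1β pair and 18.2% to the control pair, and 9 Tasp1 circles were of this kind. A count of 0 allows up to 2.46 to 3.30 CPM in these libraries by counting error alone, where circRNA.21417 stood at 5.14 and 10.6 CPM in control. That circle was singled out by its 0 reads with IL-1β and had too few reads to be tested, so these values are a description.

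Circles from other genes around taspase 1 gave few reads. The list held 18 genes: substrates, TFIIA subunits and members of the KMT2 and SETD1 methyltransferase complexes. Of these 10 had junction reads and 7 were tested on summed reads, with 5 log2 changes below 0, 2 above (6 and 1 with the SRPBM depth) and 0 past an adjusted 0.05 in edgeR (0 also at an unadjusted 0.05). Of all tested hosts 52.1% were below 0 with TMM factors. The SRPBM depth moved the median of all tested hosts to -0.24, and their share below 0 there was not computed. The list's median log2 change was -0.53, the value of Kmt2a, against -0.03 for all tested hosts, and the 3 members below it rest on few reads. Kmt2a, the best known substrate, had 269 and 255 reads in control and 160 and 131 after treatment, 157 ± 30.5 CPM with IL-1β against 227 ± 4.59 CPM, without overlap (log2 change -0.53 ± 0.31, adjusted p = 0.882 in edgeR). Kmt2c, a related methyltransferase, had the most reads of the list, 651 and 523 in control and 478 and 524 after treatment, 539 ± 5.95 CPM with IL-1β against 508 ± 69.5 CPM. Its log2 change was 0.08 ± 0.23, and -0.15 with the SRPBM depth. Ash2l, a shared subunit of these complexes, stood at 53.6 ± 7.76 CPM with IL-1β and 32.8 ± 28.2 in control, and Rev3l, the catalytic subunit of DNA polymerase ζ, at 53.5 ± 30.3 and 68.7 ± 31.3. Setd1a, Wdr5 and Rbbp5 had 25 to 49 reads each over the libraries, and their log2 changes of -2.07 ± 2.92, -0.90 ± 2.76 and -0.99 ± 2.30 were all smaller than their standard errors. Kmt2b, Gtf2a1l, Gtf2a2, Men1, Psip1, Hcfc1, Dpy30 and Setd1b had none, and Gtf2a1, the TFIIA subunit that taspase 1 cleaves, had 19.

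The hosts whose pattern over the 4 libraries was most like that of Tasp1 were Dock1, Trappc9, Eprs, Zmynd8 and Braf. Likeness was the Euclidean distance between log2 CPM centred on each host's own mean, over 4 libraries and 811 other hosts with at least 1000 reads, and it was 0.0319, 0.0477, 0.0666, 0.0852 and 0.0929. Dock1 stood at 371 and 375 CPM with IL-1β and 480 and 540.0 in control. Trappc9 stood at 579 and 610.1 CPM with IL-1β and 743 and 822 in control. The log2 changes of the 5 hosts lay between -0.45 and -0.40, near that of Tasp1, and they were picked for this likeness.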

How the data were processed

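Back-splice junction reads were measured in 4 libraries, 2 IL-1β and 2 control. Per the file headers, the deposited tables give raw counts of junction reads for each circRNA, and also SRPBM, which the authors deposited as a signal scaled for depth; counts over SRPBM gave 1 constant per library. The submitters' processing notes name mm10 and Bowtie2. Which circRNA caller and filters served is not given in the sources used here. Single-library tables repeated the counts of the series table. Members and lists were chosen with earlier results of these data known.

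Counts were fitted in edgeR 4.0.16 (R 4.3.3) by quasi-likelihood with TMM factors and no covariate, on all 15333 circRNAs or all 4878 hosts with at least 20 reads, and p-values were adjusted by Benjamini-Hochberg over all of them with a threshold of 0.05. The SE is the log2 change over the square root of F. The host was the single coding gene around both ends, or otherwise the single other gene; no other annotated gene held both ends of a Tasp1 circle. Shares have 95% exact (Clopper-Pearson) intervals, and the limit for a count of 0 uses 3 reads; both cover counting error only, since PCR copies are not independent molecules. One host of similar read total is not reported here. The circles named are the 12 with the highest mean CPM and, up to 10 more, those with an unadjusted p under 0.05; further circles were chosen after their values were seen. Alternatives were DESeq2 1.42.0, other scalings and filters, a replicate block, leaving out each library and summing junctions within 5 nt. Python 3.11.15 and scipy 1.17.1 gave the other values.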

Additional observations from a re-analysis of the deposited data

How the results depend on the processing

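DESeq2 changed 3 results: it gave -0.80 for circRNA.21452 and -0.43 for summed Tasp1, both past the adjusted threshold, and 1 called circle instead of 0; the cause was not tested. Over 14 alternatives the log2 change of circRNA.21452 stayed between -1.04 and -0.79, that of summed Tasp1 between -0.63 and -0.36, and that of Tasp1 without circRNA.21452 between -0.51 and -0.23; all other alternatives kept them short of the threshold. With 1 library left out, where the lone library is assumed to vary like the others, the ranges were -0.85 to -0.80, -0.46 to -0.36 and -0.36 to -0.23, the difference in share was -7.23 to -5.37 percentage points, and the difference in circles read (-1.5) ran from -4.5 to 1.5, so its direction rests on single libraries. With the replicate block the changes were -0.80 (adjusted p = 0.805), -0.43 (0.599) and -0.31 (1.0), and no call changed. Replicate numbers are shared between the groups, but their meaning is not given in the sources used here, and deviations of same-numbered libraries had correlations of -0.03 for circRNAs and 0.03 for hosts with at least 200 reads. Summing junctions within 5 nt joined no Tasp1 circles.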

Other observations

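Coding genes beside Tasp1 gave few circles. Esf1, 53034 bp beyond the start of Tasp1, had 305 reads over the libraries, or 75.9 ± 15.7 CPM with IL-1β and 70.5 ± 15.3 in control (n = 2 each). Ndufaf5, the next gene, had 745 reads, with 134 ± 19.4 and 215 ± 84.7 CPM, a log2 change of -0.68 ± 0.37 (SE), adjusted p = 0.882 in edgeR. On the other side Ism1 and Sptlc3 had 0 reads and Btbd3 had 30, and Sel1l2, beyond Ndufaf5, had 0.

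Of the 9 Tasp1 circles read in exactly 2 libraries, 4 were read in control 1 and IL-1β 1, among them circRNA.21442 with 38 and 22 reads there and 0 in control 2 and IL-1β 2. Over all circRNAs read in exactly 2 libraries, 17.2% of 6110 fell to this pair.

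In the authors' SRPBM, summed Tasp1 stood at 583 and 574 with IL-1β and 1003 and 788 in control, so the controls differed more from each other than in CPM, and the groups again did not overlap.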
